A study of Mus musculus with 4 samples.

Results

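The genes described here encode proteins of the mitochondrial ribosome and were taken as every gene whose symbol begins with Mrpl or Mrps followed by a digit. They number 74 of the 11603 genes in the deposited table, 45 for the large subunit (Mrpl) and 29 for the small subunit (Mrps). RNA was sequenced from hindlimb muscle stem cells, the resident precursors of skeletal muscle, of male C57BL/6 mice aged 4 to 5 months. The 2 control libraries carry the genotype label control, and the 2 knockout libraries the label of conditional Hairless (Hr) knockout; Hr encodes a corepressor of nuclear receptors. The labels do not name the Cre driver, give no other allele or treatment, and do not say what made the control animals controls. Cells were sorted as VCAM1+/CD31-/CD45-/Sca1-. Nothing in the labels says that replicates are separate animals, and every p-value therefore rests on a spread between libraries that may be technical.

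The mitochondrial ribosome translates the messenger RNAs of the mitochondrial genome, which encode inner-membrane subunits of the respiratory chain and ATP synthase. Its RNAs are made inside the organelle, whereas all of its proteins are encoded by nuclear genes, made on cytosolic ribosomes and imported. The large subunit forms peptide bonds and carries the exit tunnel, and the small subunit binds the messenger and decodes it. Quiescent muscle stem cells are known for a small mitochondrial content that grows on activation.

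All 74 genes were found by Entrez ID in RefSeq (GRCm38.p6), which holds 78 protein-coding genes with such symbols. Of the other 4, Mrpl57 and Mrpl58 are in the table under the older symbols Mrp63 and Ict1 and are described with the related genes, and Mrpl33 and Mrpl53 were not analysed here. The genes lie on 17 chromosomes, most often on chromosome 11, with 10 genes, and chromosome 17, with 8. Levels are in RPKM, which corrects read counts for exon length and for the size of the library. The log2 fold changes are knockout minus control on the log2(RPKM + 0.5) scale, tested with limma over all 11603 genes.

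The libraries held 21757211 to 34101213 listed reads, of which 49160 to 77940 came from these 74 genes. The fewest reads for any of the 74 in any library was 58, for Mrpl34. Hr, the targeted gene, was at 9.28 and 8.94 RPKM in controls and at 7.15 and 7.90 in knockouts (log2 fold change −0.26, SE 0.16, limma adjusted p = 0.431), so its transcript was still listed in both knockout libraries and the grouping rests on the labels. Pax7, the defining stem cell factor, was at 8.23, 12.9, 9.03 and 13.1 RPKM in control 1, control 2, knockout 1 and knockout 2, the order used for all values below. The 8 stem cell markers, Pax7 among them, did not share a direction. Their median log2 fold change was 0.03, with 4 above 0. The authors' deposited table called Sdc4 higher (0.78, adjusted p = 0.0028) and Itga7 lower (−0.89, adjusted p = 0.0085) in knockout. The 9 measured of 10 myofibre markers summed to 189, 786, 74.2 and 64.6 RPKM and stood highest in control 2. Of these 9, 0 had a log2 fold change above 0. Both knockout values lay below both controls for 7 of the 9, where 26.2% of all genes did so. The authors' deposited table called 7 of the 9 lower at an adjusted p under 0.05, where 4.26% of all genes were. Summed smooth muscle and pericyte markers (5 of 5) ran from 343 to 496 RPKM in control and from 165 to 242 in knockout. Most of that sum was Acta2, at 321, 474, 148 and 205 RPKM, while the log2 fold change was above 0 for the other 4. Summed endothelial markers (6 of 6) ran from 58.1 to 76.4 RPKM in control and from 41.9 to 63.2 in knockout. Fibro-adipogenic markers (4 of 6) ran from 223 to 267 and from 297 to 456. Most of the 456 was Dpt, at 131, 117, 323 and 124 RPKM. The log2 fold change was above 0 for 3 of these 4 and −0.47 for Lum. Only Ly6a, at 47.9, 49.5, 77.4 and 80.7 RPKM, had groups that did not overlap. Tenocyte markers (4 of 4) ran from 45.9 to 85.8 and from 32.8 to 71.7 RPKM, blood markers (5 of 7) from 17.5 to 17.5 and from 12.7 to 19.7, and Schwann cell markers (2 of 4) from 11 to 13.2 and from 4.32 to 10.8. The part of these cells in the results below was not tested. Without control 2, the median change of the 74 genes was 0.18. In bulk samples, a different number of cells and a different amount of RNA per cell cannot be told apart.

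Transcripts of the mitochondrial ribosomal proteins were slightly higher in knockout on the authors' scale, by a median log2 fold change of 0.22, and no single gene passed the limma test by genotype alone. The middle 50% of the 74 genes lay between 0.02 and 0.34, and the extremes were −0.32 for Mrpl42 and 0.69 for Mrps6. Over all genes the median was −0.01 with quartiles of −0.22 and 0.22. The lowest limma adjusted p among the 74 was 0.153, and 0.00862% of all genes (1 gene) had an adjusted p under 0.05. At an unadjusted p under 0.05, limma placed 11 of the 74 genes higher and 0 lower, where 10.3% of all genes were higher and 7.69% lower. Without control 1, 5 of the 74 were higher at that level, where 7.41% of all genes were, and without control 2, 3 of the 74, where 4.19% were. Limma-voom on the recovered reads called 0 of the 74 (10 higher at an unadjusted p under 0.05, where 9.95% of all genes were).

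The deposited values themselves showed the same direction for most of the genes. A log2 fold change above 0 was found for 57 of 74 genes, where 48.2% of all genes were above 0. Both knockout values lay above both control values for 39 of 74 genes, or 52.7%, where 25% of all genes did so. Both lay below for 3 genes, Mrpl39, Mrpl3 and Mrps21, where 26.2% of all genes did so, and the groups overlapped for the remaining 32. By the adjusted p of the authors' deposited table at 0.05, 2 of the 74 genes, Mrps6 and Mrpl17, were higher and 0 were lower, where 3.59% of all genes were higher and 4.26% lower.

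This direction depended on the scale. The authors' divisors equalled 85.9%, 92.4%, 75.7% and 75.5% of the reads listed in each library. When values were scaled by the reads listed instead, the median of all genes became −0.20 and that of the 74 genes −0.01. A log2 fold change above 0 was then found for 37 of the 74 and 3049 of all 11603 genes. On that scale both knockout values lay above both control values for 12 of the 74 genes and below for 15, where 11.4% and 47.2% of all genes did so, and limma placed 3 higher and 2 lower at an unadjusted p under 0.05, where 3.7% of all genes were higher and 19.2% lower. The 74 genes thus stood above the median of all genes on both scales, but their direction against 0 was not the same on both. Another scaling, by the median ratio of reads over genes, turned the sign of 1 of the 74, against 20 with reads listed. With it, limma placed 12 of the 74 higher and 0 lower at an unadjusted p under 0.05, where 10.3% of all genes were higher and 7.58% lower. The median over the 74 genes relative to the control mean was 0.21 in knockout 1 and 0.18 in knockout 2 on the authors' scale, and −0.02 and −0.05 on the scale of reads listed, where the controls were at −0.05 and 0.05.

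**Figure D1:**
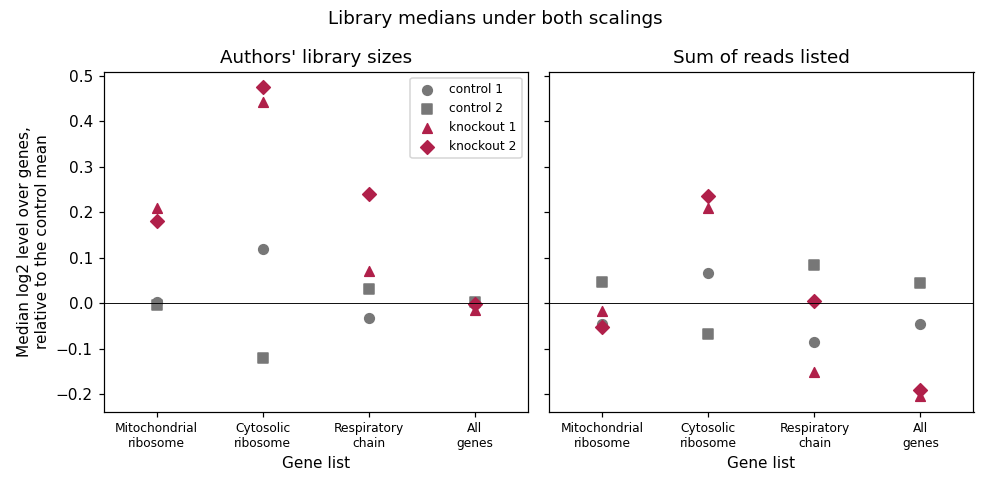
Median log2 level of each gene list in each of the 4 libraries, relative to the mean of the control libraries, with the authors' library sizes on the left and the sum of reads listed on the right. Each point is 1 library, and the knockout medians for the mitochondrial ribosome, 0.21 and 0.18 on the left, lie at −0.02 and −0.05 on the right, between or below the controls, while those for the cytosolic ribosome are above the controls in both panels.

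The 74 genes summed to 1429 and 1388 RPKM in controls and to 1736 and 1737 in knockouts. Their share of all RPKM listed was 0.338% and 0.355% in control and 0.336% and 0.327% in knockout. Their share of all reads listed was 0.215% and 0.224% in control and 0.229% and 0.226% in knockout, so both knockouts lay below both controls in the first share and above them in the second. The median gene of the 74 was at 14.8, 12.7, 15.3 and 15.2 RPKM.

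The genes with the largest differences in knockout were Mrps6, Mrpl17, Mrpl54, Mrpl16 and Mrps7, the 5 genes with the largest log2 fold change among those whose groups did not overlap. Mrps6 (Entrez 121022; mm10 chr16:92058270-92112227, plus strand) encodes bS6m of the small subunit platform and was the most abundant of the 74 genes. It was at 135 and 109 in control, against 202 and 189 RPKM in knockout. Both knockout libraries were above both controls, and the gap between the groups was larger than that between the controls. The group means were 122 ± 18.01 and 196 ± 8.93 RPKM (SD, n = 2 each), a ratio of 1.61. The log2 fold change was 0.69 (SE 0.16, 95% interval 0.29 to 1.08, limma adjusted p = 0.173), or 0.45 when scaled by reads listed, and the adjusted p in the authors' deposited table was 0.0354. Of its exon length, 15.1% is shared with Slc5a3, so reads of the pair could be split by the counting.

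Mrpl17 (Entrez 27397; mm10 chr7:105806658-105811099, minus strand) encodes bL17m, which lies near the exit of the peptide tunnel. It was at 18.02 and 15.4 in control, against 26.3 and 27.2 RPKM in knockout. The knockout libraries lay close together and above both controls. The ratio of means was 1.60 and the log2 fold change 0.67 (SE 0.15, 95% interval 0.30 to 1.04, limma adjusted p = 0.170), or 0.43 when scaled by reads listed. The authors' deposited table gave an adjusted p of 0.0393.

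Promoter sequence is shown for these 2 genes, the only ones of the 74 that the authors' deposited table calls at an adjusted p of 0.05, and for Mrps21, one of the 3 genes lower in both knockout libraries (chosen after its values were seen), because the factors that act at promoters of this gene family are described further on. The sequences are from RefSeq (GRCm38.p6) and run 5′ to 3′ on the gene's strand toward the start, without bases that lie in exons of the table. They span chr7:105811100-105811337 (minus strand) for Mrpl17, chr16:92058086-92058269 (plus strand) for Mrps6 and chr3:95871520-95871764 (minus strand) for Mrps21. Capitals mark matches to the motifs of NRF1 (GCGCA and GCGC, separated by 1 base) or ETS factors (CCGGAAG) on either strand.
Mrpl17: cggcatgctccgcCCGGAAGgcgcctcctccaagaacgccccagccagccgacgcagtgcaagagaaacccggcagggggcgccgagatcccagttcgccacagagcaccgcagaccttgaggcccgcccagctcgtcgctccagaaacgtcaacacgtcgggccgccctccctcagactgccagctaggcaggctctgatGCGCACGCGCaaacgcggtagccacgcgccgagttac
Mrps6: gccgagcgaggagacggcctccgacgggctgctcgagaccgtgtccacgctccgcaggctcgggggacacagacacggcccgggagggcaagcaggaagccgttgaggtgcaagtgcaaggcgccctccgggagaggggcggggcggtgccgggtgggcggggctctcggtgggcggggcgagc
Mrps21: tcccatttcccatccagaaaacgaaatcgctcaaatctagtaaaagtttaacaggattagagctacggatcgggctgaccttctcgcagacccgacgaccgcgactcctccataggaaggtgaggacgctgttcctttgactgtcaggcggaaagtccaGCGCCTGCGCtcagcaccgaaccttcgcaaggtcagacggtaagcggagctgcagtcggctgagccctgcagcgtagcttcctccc
In Mrpl17 the ETS match begins 237 bases and the NRF1 match 49 bases before the RefSeq start. In Mrps21 the NRF1 match is on the other strand and begins 91 bases before the start. The promoter window searched further on also holds an ETS match for Mrps21, which the stretch shown does not include. The stretch shown for Mrps6 holds no match.

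Mrpl54 (Entrez 66047; mm10 chr10:81264713-81266934, minus strand), which encodes a protein at the stalk of the large subunit, showed the closest replicates of these genes. It was at 47.9 and 48.7 in control, against 75.8 and 77.8 RPKM in knockout. Both knockout values exceeded both controls by far more than either pair differed. Its log2 fold change was 0.66 (SE 0.13, 95% interval 0.35 to 0.98) with a limma adjusted p of 0.153, the lowest of the 74. The authors' deposited table gave 0.0836, and the value scaled by reads listed was 0.43.

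Mrpl16 (mm10 chr19:11770415-11774944, plus strand), whose protein uL16m belongs to the region that holds transfer RNA on the large subunit, was at 21.4 and 18.2 in control, against 33.6 and 27.9 RPKM in knockout. The groups did not overlap, although the knockout libraries differed from each other by more than the controls did. The log2 fold change was 0.62 (SE 0.17, limma adjusted p = 0.189). Mrps7 (mm10 chr11:115603925-115608036, plus strand), which encodes uS7m of the small subunit head, was at 44.3 and 40.4 in control, against 64.4 and 55.0 RPKM in knockout. Its groups did not overlap either, with a log2 fold change of 0.49 (SE 0.15, limma adjusted p = 0.206). Scaled by reads listed, the values were 0.38 for Mrpl16 and 0.25 for Mrps7. These 5 genes were higher in both knockout libraries by group-mean ratios of 1.41 to 1.61.

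Next in order, and chosen after their values were seen, came Mrpl48, Mrps18a and Mrpl51. Mrpl48 was at 16.5, 15.2, 21.6 and 23.1 RPKM (log2 fold change 0.48), Mrps18a at 14.9, 14.1, 20.5 and 20.1 RPKM (0.47) and Mrpl51 at 8.36, 8.63, 12.04 and 11.5 RPKM (0.45). All 3 were higher in both knockout libraries with close replicates, and their limma adjusted p-values were 0.200, 0.200 and 0.226. Mrps18a carries a small-subunit symbol, but its protein sits in the large subunit of the assembled ribosome.

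**Figure D2:**
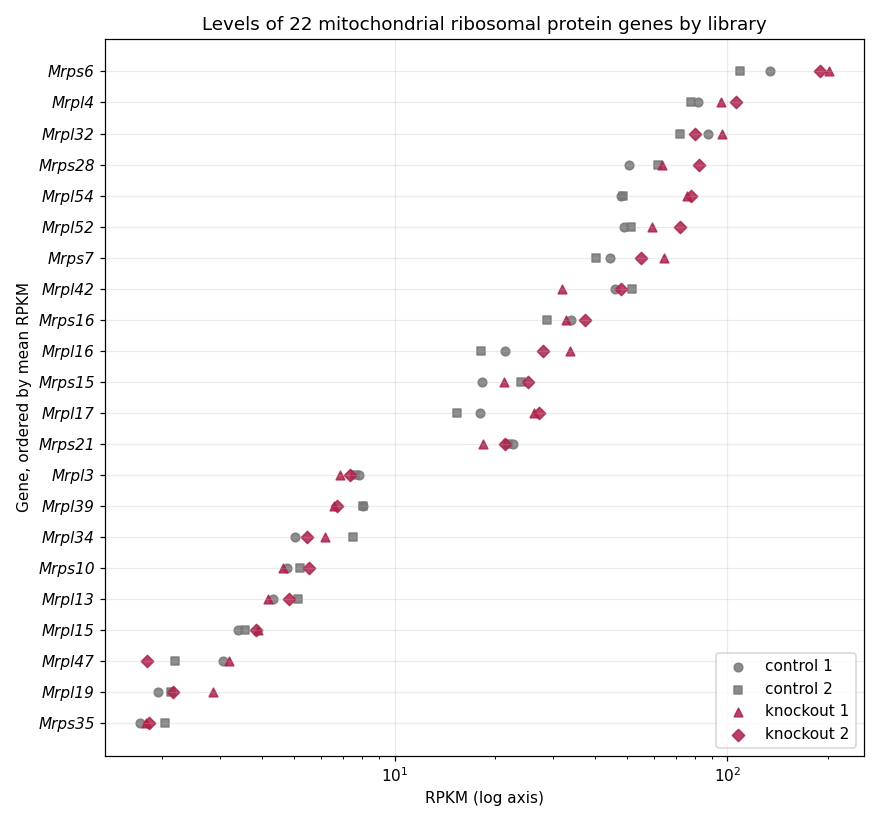
RPKM on a log axis of the 22 genes named by rule, in each of the 4 libraries, ordered by mean level from Mrps35 at the bottom to Mrps6 at the top. Grey symbols are control and red symbols knockout. For Mrps6, Mrpl54, Mrps7, Mrpl16 and Mrpl17 both red symbols lie to the right of both grey ones, and for Mrpl39 to the left.

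Mean levels over the 4 libraries ran from 1.85 RPKM for Mrps35 to 159 RPKM for Mrps6. Among the 5 most abundant genes of the large subunit, Mrpl4, which lines the exit tunnel, was at 81.7, 77.9, 95.7 and 106 RPKM (log2 fold change 0.33, limma adjusted p = 0.280). Mrpl52, of the central protuberance, was at 48.8, 51.3, 59.3 and 72.1 RPKM (0.38, limma adjusted p = 0.275). Both were higher in both knockout libraries, as was Mrpl54. Mrpl32, whose protein is matured by the m-AAA protease before it is built in, was at 87.3, 72.1, 96.5 and 80.0 RPKM, so its groups overlapped (0.15). Mrpl42 was at 46.0, 51.7, 31.8 and 47.8 RPKM and gave the lowest log2 fold change of the 74, −0.32 (SE 0.22, limma adjusted p = 0.490). Only knockout 1 stood apart for Mrpl42, and knockout 2 lay between the controls.

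Of the 5 most abundant genes of the small subunit, Mrps6 and Mrps7 are given above. Mrps28 was at 50.7, 61.7, 63.6 and 81.9 RPKM (log2 fold change 0.36, SE 0.19), and its lower knockout value was just above its higher control value. Mrps16, at 34.0, 28.8, 32.6 and 37.3 RPKM (0.16), and Mrps15, at 18.3, 24, 21.3 and 25.2 RPKM (0.14), overlapped between the groups. Scaled by reads listed, Mrps28 was still above 0 at 0.13, while Mrps16 and Mrps15 were at −0.08 and −0.09.

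The 3 genes with both knockout values below both controls differed little. Mrpl39 (mm10 chr16:84717576-84735742, minus strand), of the peptide exit side, was at 8.07 and 8.06 in control, against 6.59 and 6.73 RPKM in knockout (ratio 0.826; log2 fold change −0.26, SE 0.15, limma adjusted p = 0.427). Its replicates were close in both groups, and it lay at −0.47 when scaled by reads listed. Mrps21 (mm10 chr3:95862634-95871519, minus strand), which encodes bS21m, was at 22.8, 21.9, 18.4 and 21.4 RPKM (−0.17, limma adjusted p = 0.591), so knockout 2 lay just under the lower control. Mrpl3 (mm10 chr9:105053239-105079888, plus strand), whose protein uL3m reaches the peptidyl transferase centre, was at 7.81, 7.61, 6.87 and 7.36 RPKM (−0.11, limma adjusted p = 0.745).

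The least abundant genes gave small or uncertain differences. Mrps35 was at 1.72, 2.04, 1.79 and 1.83 RPKM (log2 fold change −0.04). Mrpl19 was at 1.95, 2.13, 2.84 and 2.17 RPKM (0.24), and 36% of its exon length is shared with Gcfc2. Mrpl47 was at 3.05, 2.19, 3.18 and 1.805 RPKM (−0.09, SE 0.28), with 24.2% of its length shared with Actl6a and Ndufb5. For Mrps35 and Mrpl47 the groups overlapped, and for Mrpl19 both knockout values lay above both controls, knockout 2 only just. Replicates also differed widely for Mrpl28 (27.7, 38.8, 29.97 and 51.3 RPKM) and Mrpl43 (20.2, 14.5, 27.3 and 16.4 RPKM), both named for this spread, whose 95% intervals of the log2 fold change were −0.48 to 0.99 and −0.42 to 1.01.

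The large and small subunits did not stand apart. The median log2 fold change was 0.20 over the 45 large-subunit genes, with 33 above 0, and 0.23 over the 29 small-subunit genes, with 24 above 0. Both knockout values lay above both controls for 23 genes of the large and 16 of the small subunit and below for 2 and 1. Of all genes, 48.2% had a log2 fold change above 0, and 25% lay above and 26.2% below both controls. When Mrps18a and Mrps30 were counted with the large subunit, the order of the medians turned, to 0.23 over 47 genes and 0.16 over 27. Scaled by reads listed, the medians were −0.03 and 0.00. In sums, the large-subunit genes gave 909, 889, 1073 and 1085 RPKM and the small-subunit genes 520, 499, 662 and 652 RPKM. The ratio of the sums was 1.75 and 1.78 in control and 1.62 and 1.66 in knockout, where Mrps6 alone made up 135, 109, 202 and 189 RPKM of the small-subunit sum.

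**Figure D3:**
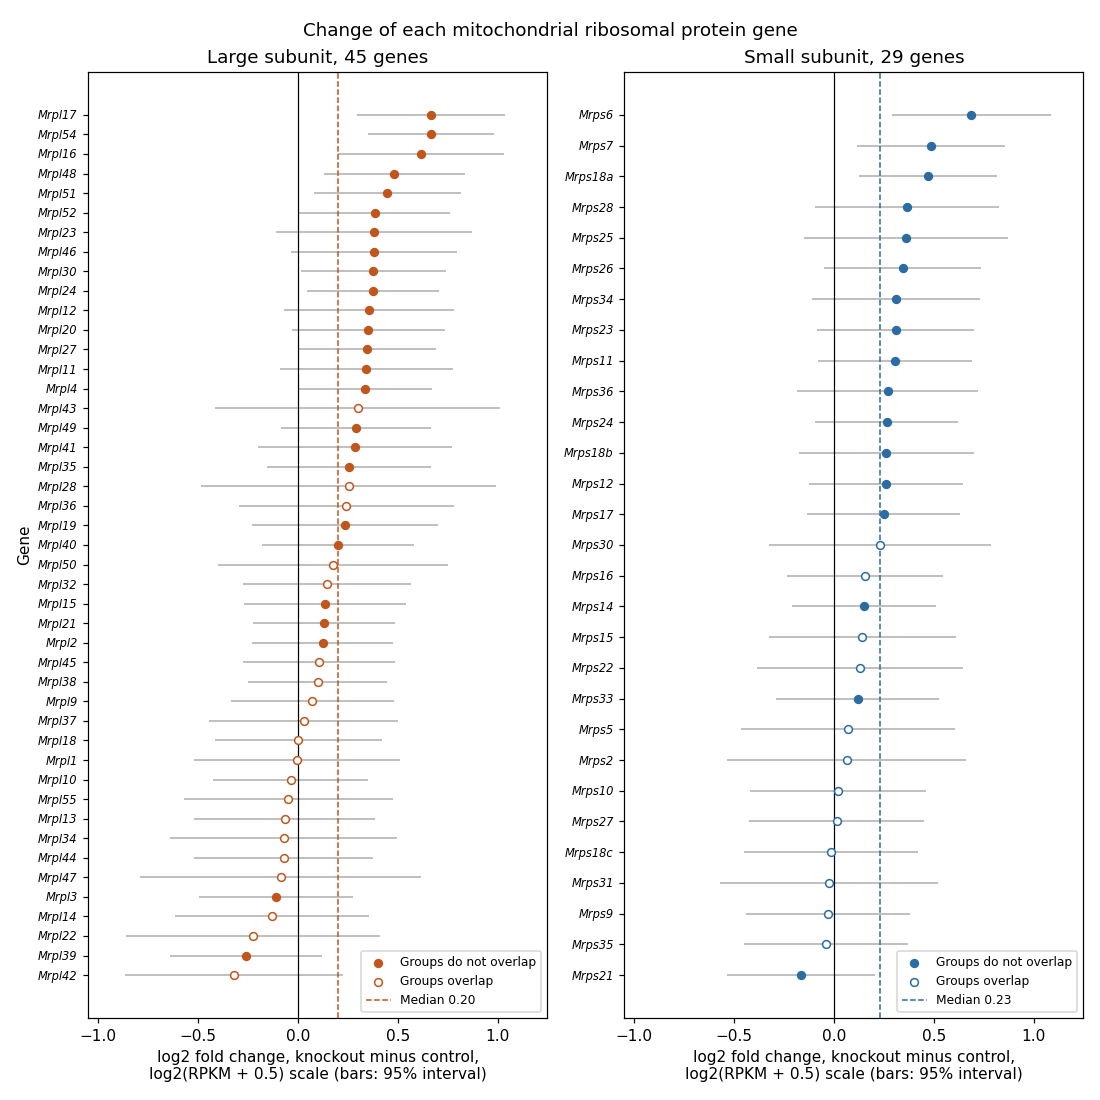
Log2 fold change (knockout minus control, log2(RPKM + 0.5) scale) of each of the 45 large-subunit and 29 small-subunit genes with its 95% interval. Filled points are genes whose groups do not overlap, and dashed lines mark the medians of 0.20 and 0.23. The points of both subunits lie mostly to the right of 0, and most intervals include 0.

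By origin of the protein, the 44 genes with a bacterial counterpart had a median of 0.15 and the 28 specific to mitochondria 0.25. The 2 left unplaced were Mrpl55 and Mrps36, of which the latter's protein has also been assigned to the oxoglutarate dehydrogenase complex. Both knockout values were above both controls for 52.3% of the first group and 53.6% of the second, where 25% of all genes were. Places within the particle held few genes each and are given as descriptions.

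Around the central protuberance, where the subunits meet, all 6 genes had a log2 fold change above 0, where 48.2% of all genes did. Both knockout values lay above both controls for 5 of the 6, beside 52.7% of the 74 genes and 25% of all genes. Mrpl48 and Mrpl52 of this place are given above, and Mrpl46 was at 16.1, 13.0, 19.8 and 18.1 RPKM (0.38) and Mrpl27 at 28.5, 25.97, 36.2 and 33.3 RPKM (0.35). Mrpl40 (0.20) and Mrpl38 (0.10) differed less, and the groups of Mrpl38 overlapped. Scaled by reads listed, 4 of the 6 were above 0, where 37 of the 74 were.

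At the stalk, which recruits translation factors, 3 of 4 genes were higher in both knockout libraries. This was so for 52.7% of the 74 genes and 25% of all genes. Mrpl12, whose protein is also known to bind the mitochondrial RNA polymerase, was at 28.1, 25.3, 38.7 and 30.3 RPKM (0.35). Mrpl11 was at 4.18, 4.87, 5.56 and 6.15 RPKM (0.34), and Mrpl10 overlapped between the groups (−0.04).

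Around the peptide exit the 8 genes spread most, from −0.26 for Mrpl39 to 0.67 for Mrpl17, with a median of 0.02. Mrpl24 (20.98, 21.7, 27.5 and 28.2 RPKM; 0.38) and Mrpl23 (22.01, 23.5, 25.04 and 35.4 RPKM; 0.38) were higher in both knockout libraries. Mrpl22 (6.77, 9.23, 8.21 and 5.46 RPKM; −0.22), Mrpl44 (−0.07), Mrpl47 and Mrpl45 (0.11), whose protein anchors the ribosome to the inner membrane, overlapped between the groups. At the messenger entry of the small subunit, Mrps24 was at 17.3, 19.2, 21.1 and 22.9 RPKM (0.26), while Mrps5 (0.07) and Mrps35 overlapped. In the decoding centre, Mrps12 was at 17.8, 20.7, 24.4 and 21.8 RPKM (0.26). The genes of places other than those named by rule were chosen for their place and their values.

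Exon length related differently to the change in these genes than in the table as a whole. Summed exon length ran from 566 bases for Mrps16 to 8487 bases for Mrpl15. Across all 11603 genes, longer genes had lower log2 fold changes (Spearman rho −0.30), while across the 74 genes rho was −0.03, with 0.01 in the large and −0.10 in the small subunit. These are correlations across genes, which share libraries and depth and are not independent replicates, and no p is given.

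The 74 genes were therefore set beside all genes of the table, themselves included, in 3 length classes. Limits at 1394 and 2667 bases gave each class about the same number of the 74. The long class reached 116825 bases over all genes (median 5077) and 8487 bases in the family (median 4419), so lengths there were not matched. Among genes up to the lower limit, the median was 0.25 for the 25 mitochondrial ribosomal genes and 0.28 for all 860 genes. In the middle class it was 0.20 for 24 and 0.12 for 2324, and in the long class 0.14 for 25 and −0.06 for 8419. Both knockout values lay above both controls for 52.0% of the 25 short genes against 53.4% of all short genes, for 54.2% against 37.1% in the middle class, and for 52.0% against 18.7% among long genes. The short genes of the family thus did not stand above all short genes, whereas 22 of the 25 long ones exceeded the median of their class and 13 its upper quartile. The median of all genes against which the family is set above differs because most genes of the table are long.

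Individual genes followed this only loosely. The 3 shortest were Mrps16 (566 bases; 0.16), Mrpl34 (645 bases; 5.01, 7.502, 6.18 and 5.47 RPKM; −0.07) and Mrpl42 (666 bases; −0.32), and in all 3 the groups overlapped. Of the 3 longest, Mrpl15 (8487 bases) was at 3.40, 3.55, 3.89 and 3.84 RPKM (0.14), with both knockout values above both controls. Mrps10 (8079 bases; 4.77, 5.21, 4.63 and 5.53 RPKM; 0.02) and Mrpl13 (7936 bases; 4.33, 5.13, 4.16 and 4.81 RPKM; −0.07) overlapped. Mrpl17, among the largest changes, is long for this family at 4153 bases.

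**Figure D4:**
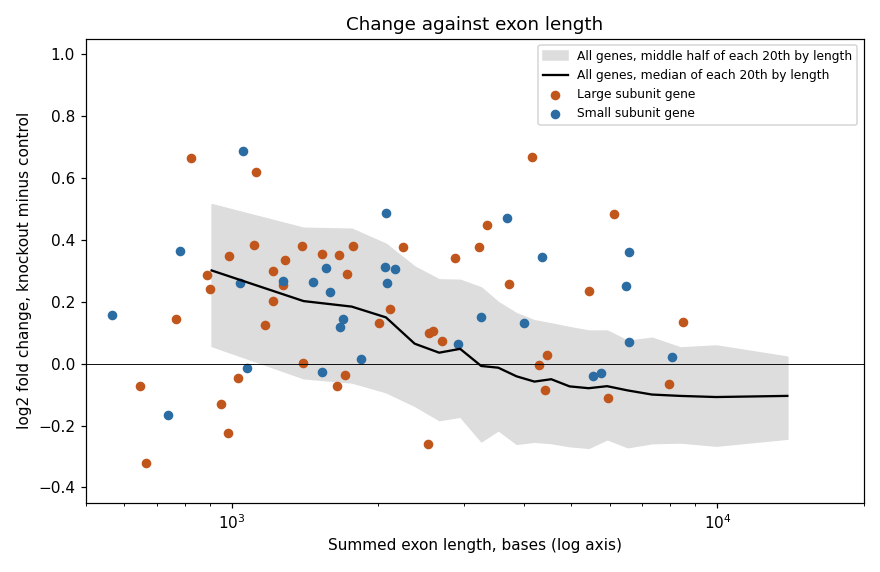
Log2 fold change against summed exon length (log axis) for the 74 genes, coloured by subunit, over the median and the middle 50% of all genes in 20 groups of equal size by length. The black median falls from 0.30 in the shortest group to −0.10 in the longest, while the points of the 74 genes show no such slope.

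Level went with the change more than length did. Across the 74 genes, the log2 fold change had a Spearman rho of 0.48 with mean RPKM, against 0.32 across all genes, and length and mean RPKM had a rho of −0.57 in the family. Mean RPKM includes the knockout libraries, and the 0.5 added before the log shrinks changes of low genes, so level and change are not independent measures. In classes limited at 8.60 and 21.5 RPKM, the median was 0.01 for low, 0.24 for intermediate and 0.33 for high family genes, beside −0.08, 0.01 and 0.15 for all genes of these levels. Of the 25 most abundant genes, 24 had a log2 fold change above 0, Mrpl42 being the exception. Of all 2310 genes of that level, 67.4% did so. Scaled by reads listed, 17 of the 25 and 898 of the 2310 were above 0.

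Shared exons touched 18 of the 74 genes, and in 12 of them over 10% of the exon length lies in another listed gene. The largest shares were 63.4% for Mrps34, with Mapk8ip3, and 53.7% for Mrps25, with Nr2c2. The median was 0.30 over these 18 genes and 0.15 over the 56 without shared bases, so genes with shared exons stood higher. Mrpl46 and Mrps11 lie head to head on chromosome 7 and share exon bases with each other, and both were higher in both knockout libraries, Mrps11 at 6.83, 7.35, 8.72 and 9.03 RPKM (0.31).

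Subunits of the ribosome that carry other symbols were similar. The 7 measured genes had a median of 0.26. Both knockout values lay above both controls for 5 of them, where 52.7% of the 74 and 25% of all genes did so. Dap3, a GTP-binding protein of the small subunit head, was at 10.9, 11.04, 13.1 and 13.4 RPKM (0.26), and Chchd1 was at 57.4, 53.1, 69.0 and 68.8 RPKM (0.32). Aurkaip1 was at 28.6, 29.6, 34.5 and 38.7 RPKM (0.32), Gadd45gip1 at 5.65, 5.05, 6.29 and 7.37 RPKM (0.32), and Mrp63 at 12.8, 11.2, 15.1 and 13.1 RPKM (0.22). Ict1, a peptide-release factor built into the large subunit, and Ptcd3 (14.7, 13.2, 14.2 and 9.40 RPKM; −0.26) overlapped between the groups.

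Factors that serve the ribosome without being part of it had medians nearer to that of all genes, and 0 of them passed limma's adjusted test. Of 15 measured mitochondrial translation factors, with a median of −0.10, 2 had both knockout values above and 4 below both controls. Limma placed 1 higher and 0 lower at an unadjusted p under 0.05. Over all genes, 25% lay above and 26.2% below, and 10.3% were higher and 7.69% lower at that p. Mrrf, the ribosome recycling factor, was at 10.8, 9.68, 13.2 and 15.8 RPKM (0.47, limma adjusted p = 0.237), and Tufm, the elongation factor that brings transfer RNA, was at 28.6, 31.7, 32.01 and 22.1 RPKM (−0.18). Of 27 assembly and ribosomal RNA factors, with a median of 0.08, 6 lay above and 7 below, with 3 higher and 2 lower at that level. Rnmtl1, which methylates the large ribosomal RNA, was at 11.5, 10.4, 17.1 and 15.4 RPKM (0.55). Malsu1, an assembly factor of the large subunit, was at 10.7, 10.8, 13.3 and 19.9 RPKM (0.58), and Grsf1, an RNA-binding protein of mitochondrial RNA granules, at 20.4, 19.2, 16.0 and 13.7 RPKM (−0.41). The first 2 were higher and Grsf1 lower in both knockout libraries.

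Genes of mitochondrial transcription and messenger stability lay on both sides of 0, around a median of −0.07 over 10 genes. At an unadjusted p under 0.05, limma placed 1 of them higher and 3 lower, where 10.3% of all genes were higher and 7.69% lower. Tfam, which packages and transcribes the mitochondrial genome, was at 24.2, 23.6, 34.9 and 32.8 RPKM (0.49, limma adjusted p = 0.189). Lrpprc, which stabilises mitochondrial messengers, was at 3.10, 3.04, 2.05 and 2.11 RPKM (−0.47, limma adjusted p = 0.230). Mterfd3, a member of the mitochondrial termination factor family, was at 1.52, 1.32, 0.742 and 0.622 RPKM (−0.70), with an adjusted p of 0.0381 in the authors' deposited table. All 3 had groups that did not overlap.

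Nuclear regulators known to act on genes for mitochondrial proteins did not share a direction. Of 9 measured, with a median of −0.13, limma placed 1 higher and 1 lower at an unadjusted p under 0.05. Of all genes, 10.3% were higher and 7.69% lower at that level. Esrra, an orphan nuclear receptor, was at 2.48, 3.60, 1.14 and 1.08 RPKM (log2 fold change −1.12, SE 0.21, limma adjusted p = 0.152), and the authors' deposited table called it lower, with an adjusted p of 3.4e-05. Myc was at 720, 722, 992 and 1006 RPKM (0.47, limma adjusted p = 0.219). Yy1 was at 13.4, 11.9, 14.3 and 16.0 RPKM (0.25), while Nrf1 (5.97, 7.32, 5.87 and 6.30 RPKM; −0.11) and Gabpa (14.9, 12.5, 12.6 and 11.8 RPKM; −0.15) overlapped between the groups. Esrra was lower and Myc and Yy1 higher in both knockout libraries.

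Among the 65 of the 74 genes with a RefSeq promoter entry (250 bases before to 50 after the start), motifs of such factors were common. Motifs were searched on both strands, and matches of different motifs could overlap. The NRF1 motif was present in 12 promoters (18.5%), against 11% of the 9271 genes of the table with an entry and 4.78% of all 27025 entries. The ETS motif CCGGAAG, the core bound by Gabpa, was present in 21 (32.3%), against 18.8% and 9.12%. The YY1 motif AAGATGGCG was present in 8 (12.3%), against 3.41% and 1.49%. A start of another gene in the opposite direction within 500 bases upstream was found for 22 (33.8%), against 16.8% and 10.1%.

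The median log2 fold change was 0.09 for the 12 genes with an NRF1 match and 0.24 for the 53 without, 0.16 and 0.22 for ETS, and 0.25 and 0.18 for YY1. A match is a description of letters in this window only, as in Mrpl17 and Mrps21 above, which both hold an NRF1 match and lay at 0.67 and −0.17.

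The cytosolic ribosome, which makes the proteins of the mitochondrial one, stood higher. Its 84 measured genes had a median of 0.45, with 83 above 0, where 48.2% of all genes were. Both knockout values lay above both controls in 80, or 95.2%, where 25% of all genes did so. At an unadjusted p under 0.05, limma placed 57 of the 84 higher, where 10.3% of all genes were. By length, 90.2% of its 41 short, 100% of its 25 middle and 100% of its 18 long genes lay above both controls. Scaled by reads listed, its median was 0.21, so it stayed above 0 where the mitochondrial ribosome did not. The 79 nuclear-encoded respiratory chain subunits, partners of the proteins that the mitochondrial ribosome makes, had a median of 0.16, with 40 (50.6%) above both controls and 4 below, beside the 52.7% above in the mitochondrial ribosome, and a median of −0.07 scaled by reads listed. At an unadjusted p under 0.05, limma placed 19 of these 79 higher and 1 lower, beside 11 and 0 of the 74. Over the whole table, 25% of genes lay above and 26.2% below both controls, and 10.3% were higher and 7.69% lower at that p. The difference between these gene lists was not tested. Of the genes encoded in the mitochondrial genome itself, 0 were in the table, so the messengers that this ribosome translates were not analysed here.

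**Figure D5:**
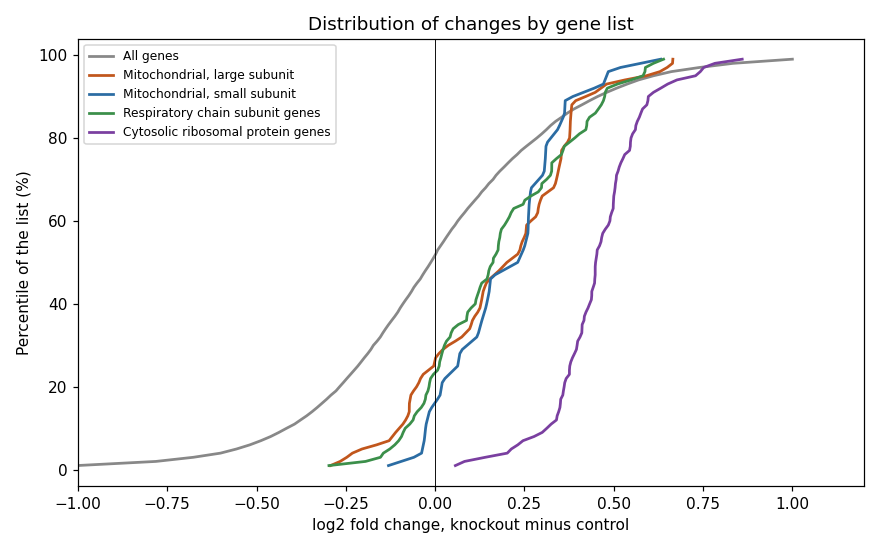
Cumulative distribution of the log2 fold change (knockout minus control) for all 11603 genes, the 45 large-subunit and 29 small-subunit genes, 79 respiratory chain genes and 84 cytosolic ribosomal protein genes, as percentile of the list against log2 fold change. Both subunits of the mitochondrial ribosome follow the respiratory chain, with medians of 0.20, 0.23 and 0.16, to the right of all genes at −0.01 and to the left of the cytosolic ribosome at 0.45.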

How the data were processed

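Per the labels' protocols, muscle stem cells were isolated by flow cytometry, total RNA was extracted, and 10 ng per library was amplified with a full-length template-switching kit (SMART-Seq v4). The submitters' processing notes list STAR, Trim Galore, edgeR, Subread with featureCounts, and the build mm10 (GRCm38), for which the sources used here give no versions or settings. The authors deposited 1 table with a value per gene and library and an adjusted p-value per gene, the p-value or q-value of the authors' deposited comparison. The header names no unit. The deposited values behaved as RPKM, because multiplying each by its gene's length recovered whole reads for 100% of values (tolerance 0.01 reads). Columns beginning with Ct were taken as control and those beginning with Fl, which the labels do not spell out, as knockout.

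The main test was limma 3.58.1 (R 4.3.3) on log2(RPKM + 0.5), with its trend option, fitted to 11603 genes in the 4 libraries by genotype alone, with Benjamini-Hochberg adjusted p-values called at 0.05. This scale understates changes of low genes. An exact permutation test of 2 against 2 libraries cannot go below p = 0.333 and was not used. Both replicates set the precision, as SD and SE. Alternatives were other pseudocounts (0.1 and 1), a filter at 1 RPKM, other scalings, limma-voom on recovered reads, a replicate block and leaving out each library.

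Named genes were, by rule, members past the limma or the authors' threshold, the 5 most abundant per subunit, up to 5 per direction with the largest change and groups that do not overlap, the 3 longest, 3 shortest and 3 least abundant, with Hr first, and of related lists the 3 with the smallest p and 2 most abundant. This named 22 of the 74 genes, and others were chosen after their values were seen. The members and lists were chosen with earlier results of these data known.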

Additional observations from a re-analysis of the deposited data

How the results depend on the processing

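Of 11 alternative settings, scaling by the reads listed moved the medians of these genes most. It put the median log2 fold change at −0.013 for the 74 genes, −0.027 for the large and 0.0011 for the small subunit. Limma placed 3 genes higher and 2 lower at an unadjusted p under 0.05, where 3.7% and 19.2% of all genes were. Both knockout values lay above both controls for 12 genes and below for 15, where 11.4% and 47.2% of all genes did so. On that scale the sign turned for 20 of the 74 genes, and among the 22 named by rule for Mrpl15 (−0.072), Mrpl32 (−0.090), Mrps10 (−0.19), Mrps15 (−0.089) and Mrps16 (−0.077). A pseudocount of 1 gave a median of 0.20, and limma-voom 0.26 for the small subunit. Without 1 library at a time, where the lone sample of a group is assumed to vary like the other group, medians ran from 0.18 to 0.21 over the 74 genes, from 0.15 to 0.20 for the large and from 0.18 to 0.23 for the small subunit. In these runs fewer values have to separate, so more genes have groups that do not overlap by construction. Such counts cannot be compared with those from all libraries, and their share over all genes is not given here. The count higher at an unadjusted p ran from 3 to 11 and lower from 0 to 1, genes with groups that do not overlap from 46 to 50 above and from 4 to 13 below, and Spearman's rho with length from −0.08 to 0.03. No gene of the 74 passed the adjusted test in these runs. The sign turned in at least 1 of these runs for 26 of the 74, and among the 22 named by rule for Mrpl47 (range −0.42 to 0.25), Mrps10 (−0.096 to 0.14), Mrps15 (−0.048 to 0.33), Mrpl13 (−0.18 to 0.044), Mrpl34 (−0.34 to 0.20) and Mrps35 (−0.14 to 0.059), none of which differed beyond its SE with all libraries. The cause was not tested. Count models (edgeR and DESeq2) on the recovered reads were not run. Depth limits the least abundant genes most.

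The labels number the samples 1 and 2 in each group but do not say that a number pairs them, and same-numbered samples had deviations correlated at 0.39 over all genes. With the replicate block, 5 of the 74 genes passed the limma adjusted test, namely Mrpl54 (0.0263), Mrpl16 (0.0322), Mrps6 (0.0322), Mrpl17 (0.0340) and Mrps7 (0.0486). These are 6.76% of the 74, where 8.65% of all genes (1004) did so. At an unadjusted p under 0.05, 20 of the 74 were higher (27.03%), where 16.3% of all genes were.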
